A study of Rattus norvegicus with 8 samples.

Results

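The genes described here encode the subunits of the proteasome and its close partners, measured in primary cultures of rat semicircular canal duct (SCCD) epithelium, a tissue of the inner ear, without and with dexamethasone. They are the genes with a probe set to which the annotation of the rat array gives a single gene symbol beginning with Psma, Psmb, Psmc, Psmd or Psme. There were 38 such genes among 10411 genes named in that way, on 41 of 15866 probe sets other than controls, and where a gene had several probe sets the one with the highest mean signal stood for it. Control cultures (n = 4) received no dexamethasone, and the other cultures (n = 4) received 100 nM dexamethasone, a synthetic glucocorticoid, with 1 array for each. All 8 were primary cultures of epithelial cells from the canals of Wistar rats 3 to 5 days old, and the labels name no allele or other agent. The time in dexamethasone before RNA extraction for the arrays, and whether a control and a treated culture came from the same canals, are not given in the sources used here.

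The proteasome degrades proteins that carry ubiquitin. Its core is a barrel of alpha rings and beta rings, in which the beta subunits encoded by Psmb5, Psmb6 and Psmb7 cut the chain, and a cap of ATPases (Psmc genes) and other subunits (Psmd genes) binds the ubiquitin, unfolds the protein and feeds it in. Interferon induces Psmb8, Psmb9 and Psmb10, whose products take the place of the cutting subunits in the immunoproteasome, and Psme1 and Psme2, which form the activator PA28, and these forms are known for making peptides for presentation to T cells. Glucocorticoids are known to lower many inflammatory genes in epithelia and to raise proteasome subunit genes in wasting muscle.

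The values are signal intensities in arbitrary units, rescaled so that each array had the same trimmed mean, since the deposited trimmed mean was at the target of 500 on replicates 1 and 2 of both groups and between 202 and 336 on replicates 3 and 4. The ratio of the 3' to the 5' beta-actin probe sets, a measure of how far the labelled RNA reaches towards the 5' end, was between 8.10 and 13.7 on control arrays and between 6.17 and 8.07 on dexamethasone arrays, without overlap. As a stand-in for detection calls, 33 genes of other tissues were taken as silent, and the 95th percentile of their signals was between 119.7 and 216 on each array. Of 10 epithelial markers 10 exceeded that silent level on all 8 arrays. So did 5 of 8 fibroblast markers (Col1a1, Col1a2, Col3a1, Fbln1 and Postn) and 1 of 6 endothelial markers (Kdr). In each of these 2 lists 3 markers exceeded it on 0 arrays. Col3a1, the strongest of the fibroblast markers, had a mean of 2359 in control and 2160 with dexamethasone (n = 4 each). Of 10 macrophage markers 0 exceeded it on all 8 arrays and 6 on 0 arrays. Cd14 and Aif1 exceeded it on 7 arrays, Fcer1g on 5 and Csf1r on 3. The summed signal of the 10 macrophage markers was between 1139 and 1516 on control arrays and between 1520 and 1833 on dexamethasone arrays. That gap rested on Cd14, an endotoxin receptor that other cells can also make, at 278 ± 75.6 in control and 544 ± 185 with dexamethasone (SD, n = 4 each; adjusted p 0.0809 from limma). Without Cd14 the sums overlapped, at 801 to 1225 and 857 to 1416. Of the 5 markers tested, Cd14 among them, 3 were below 0, with a median log2 fold change of -0.086. The markers too faint to be tested were all above 0. Their log2 fold changes were 0.20 for Ptprc, 0.46 for Cd68, 0.15 for Laptm5, 0.77 for Tyrobp and 0.18 for Cd53. Each of these exceeded the silent level on 0 of 8 arrays. Ptprc, the pan-leukocyte antigen CD45, read between 28.1 and 52.7.

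All 38 genes had a mean signal above the minimum of 100 and were tested, and all 38 exceeded the silent level on all 8 arrays, with signals between 279 and 9942. By role, 13 encode the core (7 of the alpha ring and 6 of the beta ring), 14 the cap (5 ATPases and 9 other subunits), 5 the immunoproteasome and PA28, 1 the activator PA200 (Psme4) and 3 factors that assemble the cap (Psmd5, Psmd9 and Psmd10). The symbols of the remaining 2, Psmc3ip and Psme3ip1, share the prefix, but these genes encode proteins named for binding a proteasome protein and no subunit. Another 6 probe sets were assigned to a proteasome gene together with another gene and were left out, which removed Psmb6 and Psme3. Psma8, Psmb11, Psmc6, Psmd12 and Psmd14 were not analysed here.

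No proteasome gene passed the test for a difference between dexamethasone and control cultures. Of the 38 genes 0 were lower and 0 higher at an adjusted p under 0.05 (limma, Benjamini-Hochberg over 10368 probe sets), where 0.81% of all probe sets tested were lower and 1.88% higher. At an unadjusted p under 0.05 the count was 6 lower and 1 higher, beside 8.16% and 7.96% of all probe sets. The log2 fold change (dexamethasone over control, on rescaled signals) was below 0 for 33 of the 38 genes (15 of 38 on the signals as deposited), where it was below 0 for 54.1% of all probe sets. Its median was -0.15 over the 38 genes and -0.023 over all probe sets tested. All 4 dexamethasone arrays lay below all 4 control arrays for 6 genes (Psma3, Psmb5, Psmd1, Psmd4, Psmb9 and Psme2), beside 5.46% of all probe sets, and above all of them for 0 genes, beside 5.57%. A fold of at least 1.3 was reached by 5 genes lower and 0 higher, where 7.06% and 7.35% of all probe sets reached it.

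**Figure D1:**
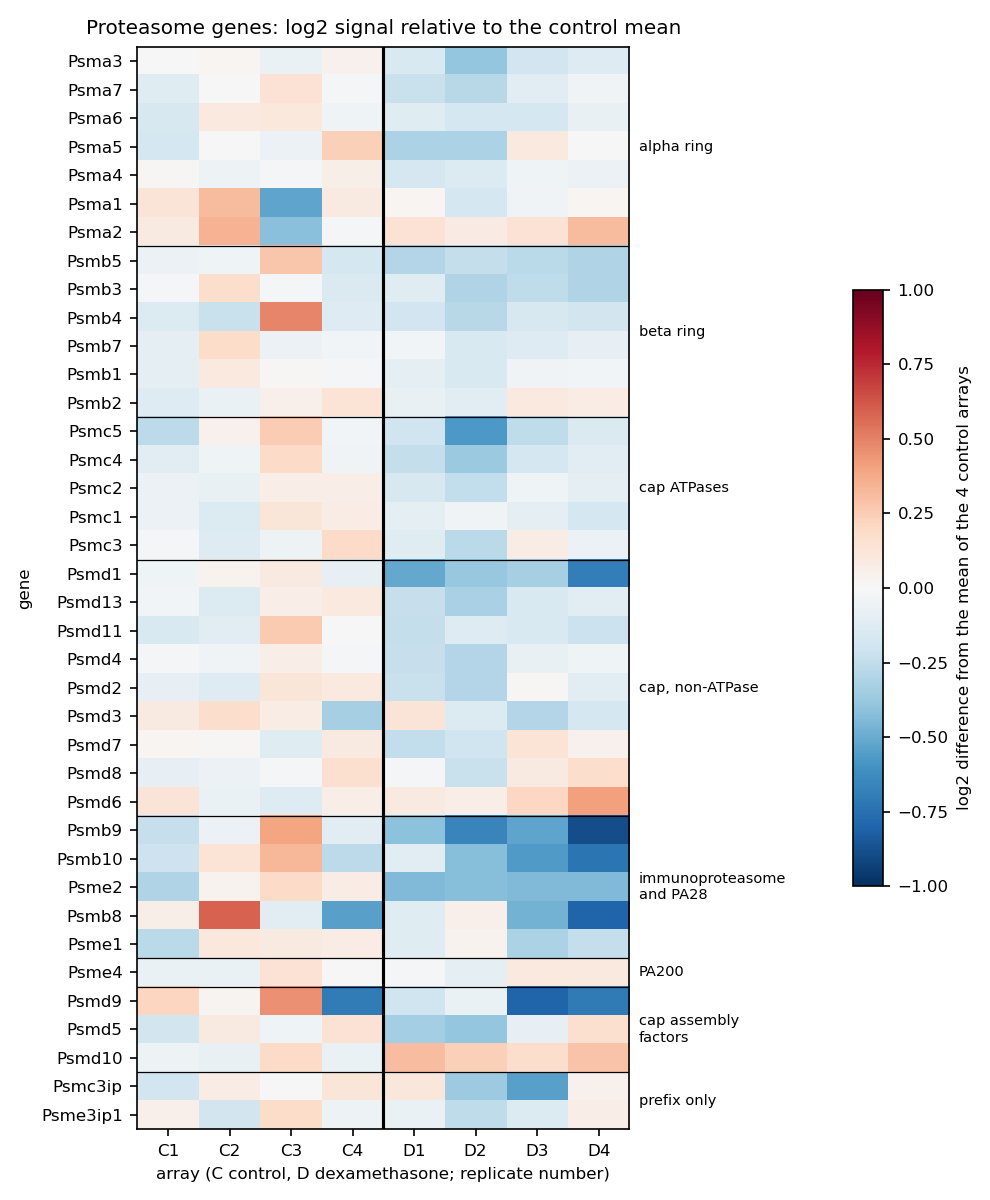
Log2 signal of each of the 38 proteasome genes (rows, grouped by role) on each array (columns, C1 to C4 control and D1 to D4 dexamethasone replicates), as the difference from the mean of the 4 control arrays. Most rows are blue on the dexamethasone side, and the deepest blue is in the rows of the immunoproteasome, Psmd1 and Psmd9, while Psma2, Psmd6 and Psmd10 are red on all 4 dexamethasone arrays.

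By role, the median log2 fold change was -0.13 for the core, -0.14 for the cap and -0.44 for the immunoproteasome with PA28, and it was below 0 for 12 of 13, 12 of 14 and 5 of 5 genes. On the signals as deposited, which raise every value, these medians were 0.031, 0.020 and -0.27. No set test was made, since the genes were chosen with earlier results of these data known. In the 2 array sets taken alone, the median over the 38 genes was -0.14 for replicates 1 and 2, and for replicates 3 and 4 it was also -0.14. The log2 fold change was below 0 in both sets for 28 genes, beside 34% of all probe sets. For the immunoproteasome group the medians were -0.30 and -0.58. Taken array by array as the median deviation from the control mean, the 38 genes lay at -0.14, -0.24, -0.13 and -0.086 on dexamethasone replicates 1 to 4 and between -0.064 and 0.071 on the control arrays. The immunoproteasome group lay at -0.12, -0.42, -0.47 and -0.73 on dexamethasone replicates 1 to 4. It lay between -0.23 and 0.19 on the control arrays, so the groups overlapped. The core overlapped too, with -0.061 on dexamethasone replicate 4 and -0.093 on control replicate 1, and the cap did not. When the fit took the log2 beta-actin ratio as covariate, the median over the 38 genes was -0.12 and that of the immunoproteasome group -0.26, with 0 genes past the threshold. The ratio did not overlap between the groups, so this fit cannot tell the part of the ratio from that of dexamethasone. The part of the ratio in the differences was not tested. In cultures measured in bulk, fewer cells of a type and less RNA per cell cannot be told apart.

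**Figure D2:**
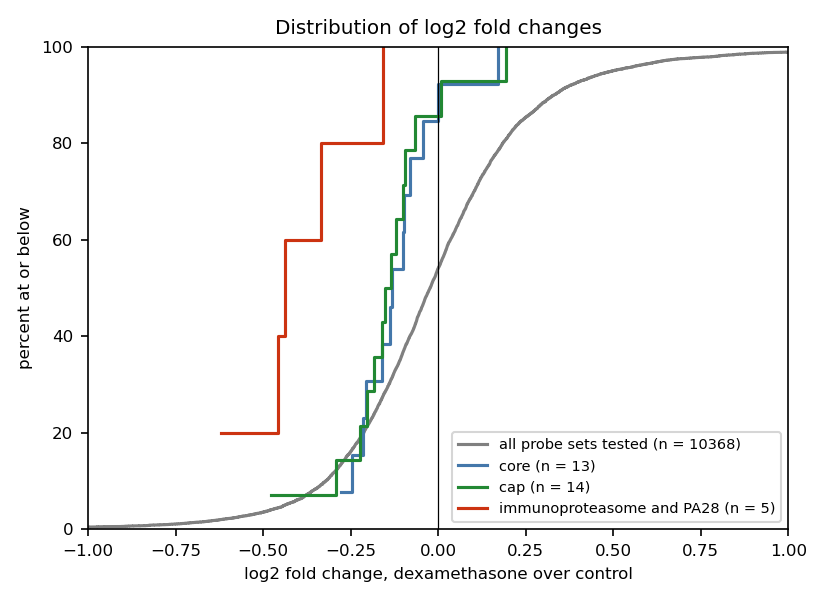
Percent (y axis) at or below each log2 fold change of dexamethasone over control (x axis, shown from -1 to 1). It is of probe sets for all 10368 tested and of genes for the core, the cap and the immunoproteasome with PA28. The core and cap curves lie close together and mostly to the left of 0. The immunoproteasome curve lies wholly below 0, with its 5 genes between -0.62 and -0.16.

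The immunoproteasome and PA28 genes had the lowest median of the groups and 5 of 5 log2 fold changes below 0, and 0 of 5 passed the test. Psmb9 encodes the interferon-induced counterpart of the Psmb6 product. Its signal was 558, 630.5, 862 and 607 on control replicates 1 to 4 and 493, 414, 455 and 355 on dexamethasone replicates 1 to 4. Every dexamethasone array was below every control array, the closest pair being control replicate 1 and dexamethasone replicate 1, and the means were 664 ± 135 and 429 ± 58.9 (SD, n = 4 each). Its log2 fold change was -0.62 (SE 0.16, 95% interval -0.97 to -0.27), with an adjusted p of 0.0646 from limma and an exact permutation p of 0.0286 (two-sided), the smallest that 4 arrays against 4 allow. Without control replicate 3, its brightest array, the log2 fold change was -0.49, and under the beta-actin covariate it was -0.26 (adjusted p 0.689 from limma).

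Psme2 encodes PA28 beta, which with the Psme1 product opens the gate of the core. Its signal was 1428, 1807, 2015 and 1853 on control replicates 1 to 4 and 1299, 1313, 1294 and 1297 on dexamethasone replicates 1 to 4. Dexamethasone arrays averaged 1301 ± 8.05 and control arrays 1776 ± 249 (SD, n = 4 each), and all 4 dexamethasone arrays were below the lowest control array, control replicate 1. The log2 fold change was -0.44 (SE 0.11, 95% interval -0.69 to -0.19; adjusted p 0.0707 from limma, exact permutation p 0.0286). Leaving out control replicate 1 moved it to -0.54, past the threshold (limma, adjusted p 0.0245). Psme1 encodes PA28 alpha and has a pseudogene in RefSeq named as its copy, from which the probe set was not told apart here. Psme1 read 1704, 2206, 2191 and 2163 on control and 1891, 2102, 1654 and 1746 on dexamethasone arrays. Its groups overlapped, since control replicate 1 was lower than 3 of the dexamethasone arrays, and the log2 fold change was -0.16 (95% interval -0.41 to 0.10, adjusted p 0.561 from limma).

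Psmb10 encodes the counterpart of the Psmb7 product. Its signal was 517, 658, 755 and 499 on control and 557, 444, 404 and 359.9 on dexamethasone replicates 1 to 4. Dexamethasone replicate 1 lay among the control arrays and the other 3 below all of them. Its log2 fold change was -0.46 (95% interval -0.84 to -0.080; adjusted p 0.215 from limma, exact permutation p 0.0857), and -0.20 under the beta-actin covariate (adjusted p 0.851 from limma). Psmb8, the counterpart of Psmb5, read 508, 732, 454 and 334 on control and 449, 505, 352 and 279 on dexamethasone arrays. Its control arrays varied more than those of any other of the 38 genes (coefficient of variation 32.9%), with control replicate 2 high and control replicate 4 low, and the groups overlapped over most of their range. Its log2 fold change was -0.33 (95% interval -0.86 to 0.19, adjusted p 0.543 from limma). Leaving out single arrays moved it, to -0.14 without control replicate 2, -0.18 without dexamethasone replicate 4 and -0.52 without control replicate 4.

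**Figure D3:**
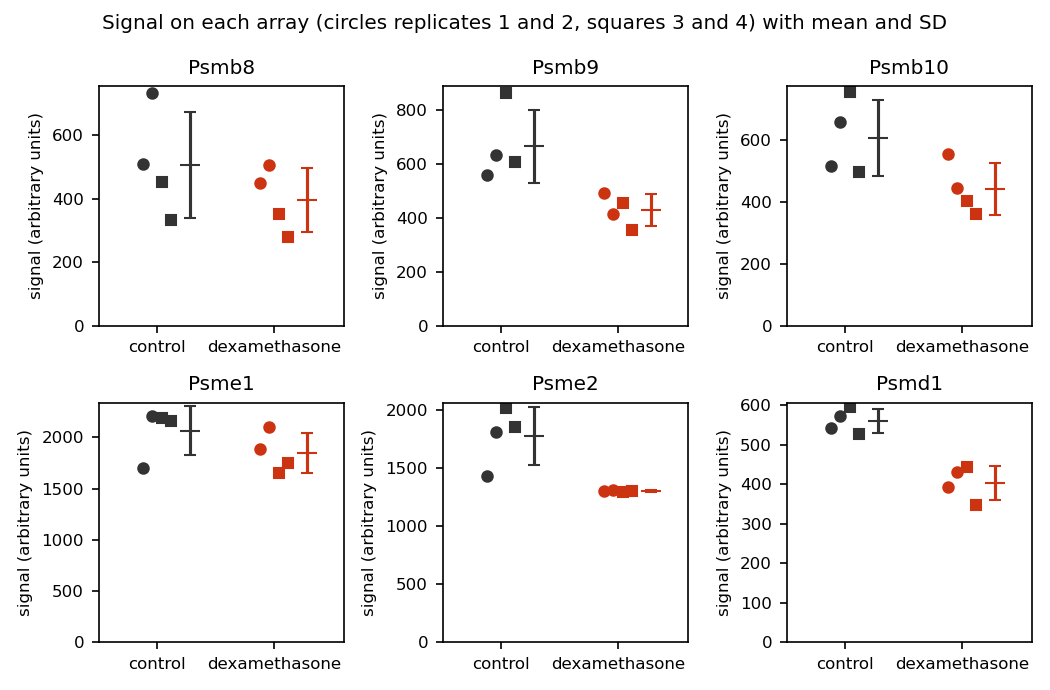
Signal in arbitrary units (y axis, from 0) on each control and dexamethasone array for Psmb8, Psmb9, Psmb10, Psme1, Psme2 and Psmd1, with circles for replicates 1 and 2, squares for replicates 3 and 4, and the mean with its SD beside them (n = 4). The groups are apart for Psmb9, Psme2 and Psmd1 and overlap for Psmb8, Psmb10 and Psme1.

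When limma was given the array set as a block (the arrays deposited at the target against the others), it called 3 of the 38 genes lower and 0 higher, beside 2.26% and 3.32% of all probe sets. They were Psmd1, Psme2 and Psmb9 (adjusted p 0.0392, 0.0339 and 0.0446 from limma). The count lower was 0 when control replicate 2 or any 1 of the 4 dexamethasone arrays was left out of that fit. It was 1 (Psme2) without control replicate 1 and 2 (Psmb5 and Psmb9) without control replicate 4. Without control replicate 3 it stayed at 3 (Psmb9, Psmd1 and Psme2), with 1 gene higher (Psmd10). Within an array set none of the 3 passed on its own: the log2 fold changes in the first set (replicates 1 and 2) and the second were -0.39 and -0.85 for Psmb9. They were -0.30 and -0.58 for Psme2, and -0.44 and -0.51 for Psmd1.

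Each cutting subunit was also set against its counterpart within each array, a ratio that multiplying an array by 1 factor leaves as it is and that was added after the values were seen. The log2 ratio of Psmb10 over Psmb7 differed by -0.36 between dexamethasone and control (exact permutation test over 4 arrays a group, two-sided p 0.0857, 0.171 after adjustment for the 2 pairs), with 3 of 4 dexamethasone arrays below every control array. For Psmb8 over Psmb5 the difference was -0.058 (exact permutation p 0.886, adjusted 0.886). Psmb6, the constitutive partner of Psmb9, had no probe set of its own on these arrays.

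Promoter sequences are shown for the genes with an interferon regulatory factor pair, since the immunoproteasome genes are known for their control by interferon, and for the 3 genes with the smallest adjusted p. RefSeq (build GRCr8) gave promoters, 250 bases before to 50 after the start of transcription, for 36 of the 38 genes (not Psma7 and Psmd6), and 13 motifs were searched on both strands. The pair GAAANNGAAA was found in 6 of the 36 promoters (16.7%) and in 3.92% of all 33469 promoters. In the immunoproteasome group 3 of 5 held it, Psmb8, Psmb10 and Psme2, and so did Psma4, Psmb3 and Psmd7. The windows below are read on the strand of the match with the pair in capitals.
Psmb10, chr19:50743346-50743375, minus strand: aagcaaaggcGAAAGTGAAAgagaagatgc
Psmb10, chr19:50743290-50743319, minus strand: agtggggggtGAAAGCGAAAgtaggaagcg
Psmb8, chr20:4657016-4657045, plus strand: acaaggaagtGAAAGCGAAAgccacagcac
Psme2, chr15:33052785-33052814, minus strand: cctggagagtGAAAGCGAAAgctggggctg
Psma4, chr8:64236276-64236305, plus strand: gtacagaagaGAAAATGAAAgtggagtgca
Psmb3, chr10:83193634-83193663, minus strand: atggaaagcgGAAAGTGAAAagtcactgtg
Psmd7, chr19:52411363-52411392, plus strand: gccatcttgaGAAAGGGAAAgggctgcctt
The form GAAAGCGAAA was searched after the first search, because it was the commonest form of the pair in the immunoproteasome promoters. Its matches in that group were thus fixed by the choice and are not a result. It was in Psmb8, Psmb10 and Psme2 alone among the 36 and in 0.0717% of all promoters. Psmb10 held 2 pairs. Of the 3 core and cap genes in the list, Psma4 had a log2 fold change of -0.10, Psmb3 of -0.25 and Psmd7 of -0.065. A match is a run of letters and was not tested as a binding site.

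The promoters of Psmb9 and Psme2 follow, written 5' to 3' on the strand of the gene, with every match to a searched motif in capitals.
Psmb9, chr20:4668750-4669049, plus strand: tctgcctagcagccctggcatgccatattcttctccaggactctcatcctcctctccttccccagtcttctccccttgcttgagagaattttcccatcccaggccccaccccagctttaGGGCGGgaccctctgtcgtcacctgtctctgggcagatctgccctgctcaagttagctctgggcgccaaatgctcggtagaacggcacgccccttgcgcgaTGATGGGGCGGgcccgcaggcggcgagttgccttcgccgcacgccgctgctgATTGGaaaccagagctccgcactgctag
Psme2, chr15:33052702-33053001, minus strand: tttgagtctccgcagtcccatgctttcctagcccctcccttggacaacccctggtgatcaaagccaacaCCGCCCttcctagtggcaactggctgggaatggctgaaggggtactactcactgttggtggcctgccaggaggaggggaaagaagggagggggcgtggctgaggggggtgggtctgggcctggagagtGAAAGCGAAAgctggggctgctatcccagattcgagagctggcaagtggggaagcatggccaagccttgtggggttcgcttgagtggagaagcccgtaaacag
In Psmb9 the capitals mark the GC box GGGCGG, the antioxidant response core TGANNNNGC, a GC box that overlaps it, and the CCAAT box read on the other strand. In Psme2 they mark a GC box on the other strand and the interferon regulatory factor pair. The GC box was in 66.7% of the 36 promoters and 33.1% of all (41.8% of those of protein-coding genes), the antioxidant response core in 58.3% and 40.5%, and the CCAAT box in 55.6% and 37.5%. Psmb9 held no match to the interferon pair in this window. In the RefSeq gene order on chromosome 20, Psmb8 lies between Tap2 and Tap1, and Psmb9 follows Tap1. Psme1 and Psme2 flank Emc9 on chromosome 15. A match to the glucocorticoid receptor pair ACANNNTGT was in the promoter of 1 gene, Psma6, of 36 (2.78%), and in 6.86% of all promoters. The ETS site CCGGAAG was in 33.3% of the 36 promoters and 8.75% of all, in 0 of the 5 of the immunoproteasome group.

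In the beta ring of the core, 6 of 6 genes had a log2 fold change below 0, from -0.28 to -0.0011, and 0 passed the test; on deposited signals Psmb1, Psmb2 and Psmb7 were above 0. Psmb5 encodes the subunit with chymotrypsin-like activity. It read 4759, 4794, 6016 and 4379 on control and 4033, 4192, 4104 and 4023 on dexamethasone replicates 1 to 4, so that control replicate 3 was high and every dexamethasone array lay below every control array. The log2 fold change was -0.28 (SE 0.10, 95% interval -0.49 to -0.059; adjusted p 0.189 from limma, exact permutation p 0.0286), and -0.18 without control replicate 3. Under the beta-actin covariate it was -0.11 (adjusted p 0.849 from limma). Psmb7, which encodes the subunit with trypsin-like activity, read 3519, 4267, 3596 and 3675 on control and 3678, 3377, 3425 and 3550.4 on dexamethasone arrays. Its groups overlapped, and the log2 fold change was -0.10 (95% interval -0.29 to 0.094). Psmb3, a structural subunit with further loci in RefSeq named as its copies, from which the probe set was not told apart here, had a log2 fold change of -0.25 (95% interval -0.46 to -0.033, adjusted p 0.238 from limma). At the other end stood Psmb1 with -0.079 and Psmb2 with -0.0011, whose 95% interval reached from -0.21 to 0.21. Psmb4 had a log2 fold change of -0.20, and -0.043 without control replicate 3, where its signal was 9942 against 6091 to 6503 on the other control arrays.

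In the alpha ring, which forms the gate of the barrel, 6 of 7 genes had a log2 fold change below 0 (on deposited signals Psma3 alone) and 0 passed the test. Psma3 had -0.21 (95% interval -0.45 to 0.019, adjusted p 0.358 from limma) and no overlap, with control arrays between 742 and 798 and dexamethasone arrays between 595 and 710. Psma7 followed with -0.16. Psma2 was the only one above 0, with 0.17 (95% interval -0.14 to 0.48). On control replicate 3 Psma2 read 1607 and Psma1 read 1692, against 2116 to 2720 and 2593 to 3043 on the other control arrays, and without it the log2 fold change of Psma2 was 0.033. Control replicate 3 also had the highest beta-actin ratio, 13.7. In replicates 1 and 2 alone, the log2 fold change was -0.10 for Psma2 and -0.30 for Psma1, and in replicates 3 and 4 it was 0.45 and 0.21.

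In the cap, 12 of 14 genes had a log2 fold change below 0 and 0 passed the test. Psmd1, with the lowest, encodes a large scaffold subunit of the cap to which ubiquitin receptors bind. It is singled out here because its adjusted p was the smallest of the 38, after the values were seen. Its signal was 542, 573, 594 and 528 on control and 393, 431, 444 and 347 on dexamethasone replicates 1 to 4. All dexamethasone arrays lay below all control arrays, with the gap between dexamethasone replicate 3 and control replicate 4 as the narrowest, and the means were 403.5 ± 43.8 with dexamethasone and 559.5 ± 29.9 in control (SD, n = 4 each). This gave a log2 fold change of -0.48 (SE 0.12, 95% interval -0.74 to -0.21; adjusted p 0.0644 from limma, exact permutation p 0.0286). It lay between -0.52 and -0.41 with each array left out, and -0.37 with the beta-actin covariate (adjusted p 0.509 from limma). Its promoter held 3 matches to the antioxidant response core and a GC box, in capitals.
Psmd1, chr9:94157721-94158020, plus strand: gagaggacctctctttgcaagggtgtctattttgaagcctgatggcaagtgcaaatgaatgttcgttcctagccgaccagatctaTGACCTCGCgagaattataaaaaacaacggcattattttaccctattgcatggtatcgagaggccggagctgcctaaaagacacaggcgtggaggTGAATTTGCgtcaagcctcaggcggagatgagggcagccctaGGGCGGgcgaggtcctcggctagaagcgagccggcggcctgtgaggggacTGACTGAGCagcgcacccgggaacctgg

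Among the 5 ATPases, which unfold the substrate, Psmc5 had a log2 fold change of -0.29 (95% interval -0.60 to 0.014, adjusted p 0.340 from limma; -0.12 under the beta-actin covariate) and Psmc4 of -0.22 (95% interval -0.44 to 0.00038, adjusted p 0.311 from limma). Psmc1 and Psmc3 had the smallest, with -0.10 and -0.093. Among the 9 other subunits, Psmd13 followed Psmd1 with -0.20 (95% interval -0.44 to 0.031). Psmd4, which encodes a ubiquitin receptor, had -0.16 and no overlap, with control arrays between 1313 and 1406 and dexamethasone arrays between 1099 and 1302. Psmd6 and Psmd8 were the 2 cap genes above 0, with 0.19 (95% interval -0.053 to 0.44, adjusted p 0.451 from limma) and 0.0085 (95% interval -0.25 to 0.27). For Psmd11, both probe sets lay below 0, with -0.18 and -0.20.

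**Figure D4:**
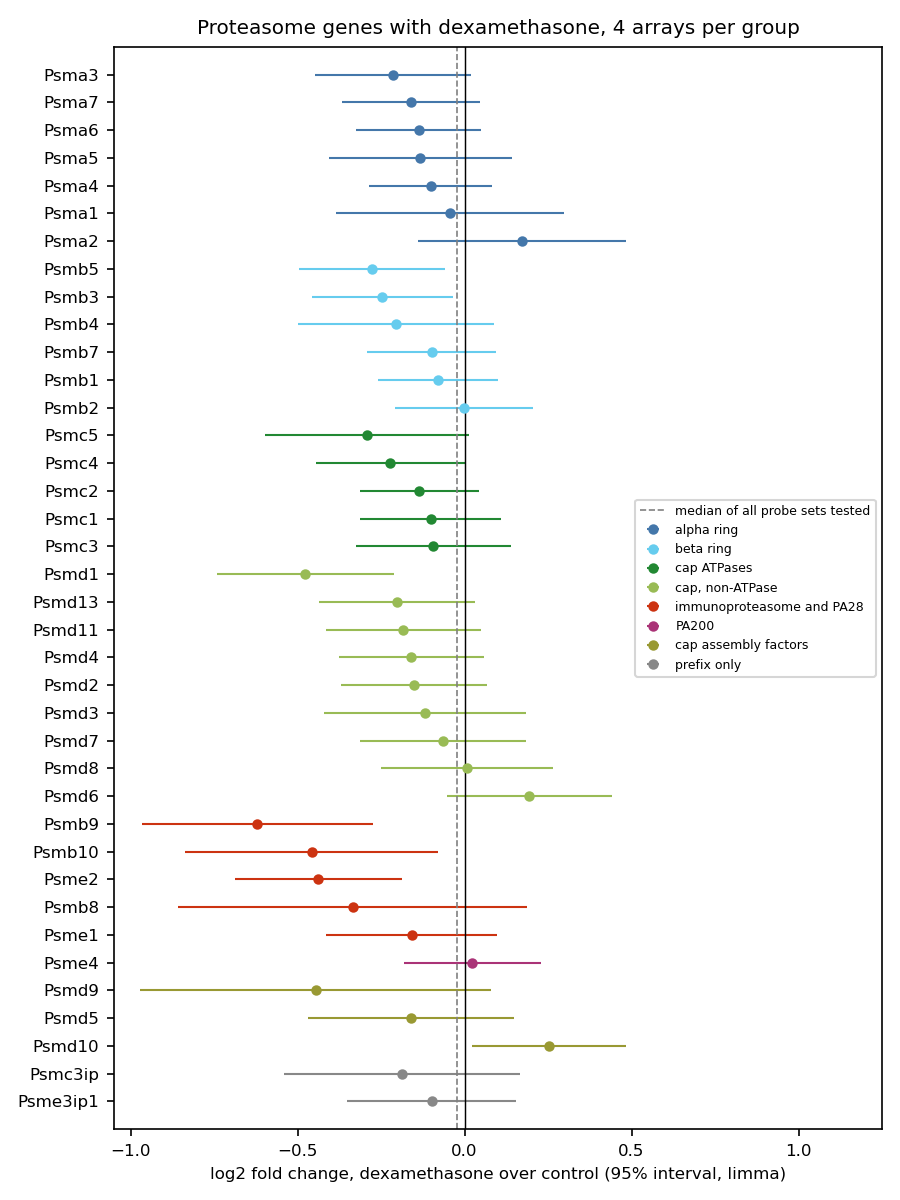
Log2 fold change of dexamethasone over control (x axis) with its 95% interval from limma for each of the 38 proteasome genes (rows, 4 arrays per group), coloured by role. The dashed line is the median of all probe sets tested, -0.023, and 32 of the 38 points lie to its left.

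Psme4 encodes PA200, an activator that works without ubiquitin. Its strongest probe set read 2002, 2004, 2316 and 2096 on control and 2083, 1974, 2248 and 2245 on dexamethasone replicates 1 to 4. The groups overlapped over nearly their whole range, and the log2 fold change was 0.023 (95% interval -0.18 to 0.23). Its 3 probe sets differed in sign, with 0.02, -0.04 and 0.21. The assembly factors, which bring the ATPase ring together, had log2 fold changes on both sides of 0, and 0 of 3 passed the test. Psmd9 also varied widely, with 1019, 893, 1209 and 541 on control and 764, 837, 503 and 539 on dexamethasone arrays, with control replicate 4 beside the lower dexamethasone arrays. Its log2 fold change was -0.45 (95% interval -0.97 to 0.080, adjusted p 0.405 from limma). Psmd10 (gankyrin) read 828, 812, 979 and 817 on control and 1059, 1009, 969.7 and 1044 on dexamethasone arrays. It had the highest log2 fold change of the 38 genes, 0.25 (95% interval 0.021 to 0.48; adjusted p 0.266 from limma, exact permutation p 0.0571), and only control replicate 3 reached the dexamethasone range. Psmd5 had -0.16. The 2 genes that share only the prefix had -0.19 (Psmc3ip, a factor of meiotic recombination) and -0.10 (Psme3ip1).

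Other genes of the pathway were taken from lists of 36 genes, of which 26 were on the array and 25 were tested. Of these 0 passed the test, 16 were below 0, and the median log2 fold change was -0.067. The 6 genes of assembly factors and an inhibitor had a median of -0.25, with 5 of 6 below 0. Pomp, the chaperone of core assembly, had the smallest adjusted p of the 25. It read 2886, 2860.1, 3369.5 and 3052 on control and 2258, 2277, 2624 and 2588 on dexamethasone replicates 1 to 4, with no overlap, and its log2 fold change was -0.32 (adjusted p 0.111 from limma; 0.0277 with the array set as a block). Among the delivery factors, Vcp, the ATPase that pulls ubiquitinated proteins from complexes and membranes, had -0.26 (adjusted p 0.265 from limma). Txnl1, which binds the cap, had 0.21 (adjusted p 0.491), and the ubiquitin-activating enzyme Uba1 -0.030 (adjusted p 0.937). Among the transcription factors of subunit genes, the smallest adjusted p was that of Nfe2l2, 0.698, with a log2 fold change of 0.095.

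The genes of interferon response and peptide loading are the known companions of the immunoproteasome, and 0 of 4 tested passed the test, with a median of -0.064. Tap1, which carries peptides into the endoplasmic reticulum, had -0.25 (95% interval -0.63 to 0.12, adjusted p 0.523 from limma) and exceeded the silent level on 3 of 8 arrays. Tap2 was under the signal minimum. Irf1, a transcription factor induced by interferon, had -0.062 (95% interval -0.36 to 0.24), and B2m, the light chain of the presenting molecule, 0.020 (95% interval -0.16 to 0.20). Macrophages also express the immunoproteasome. As given above, the summed signals of the macrophage markers were apart between the groups with Cd14 and overlapped without it. Of the 10 markers 0 exceeded the silent level on all 8 arrays and 6 on 0 arrays. Cd14 and Aif1 exceeded it on 7 arrays, Fcer1g on 5 and Csf1r on 3. The part of that cell type in these values was not tested.

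The sign of the small differences depends on how the arrays were scaled. On the signals as deposited, the median of all probe sets tested was 0.14 and that of the 38 genes 0.0085, with 15 of the 38 below 0. Relative to the median of all probe sets, 32 of the 38 genes lay lower and their median differed by -0.13 on the log2 scale, and a scaling by 1 factor per array leaves both values as they are by construction. Quantile normalization, which is not such a scaling, gave 32 genes and -0.14. Replicates 1 and 2 alone gave 32 genes and -0.14, replicates 3 and 4 alone 27 and -0.091, and the beta-actin covariate 29 and -0.099. With each array left out, the difference was between -0.18 and -0.086, the last without dexamethasone replicate 2. For the immunoproteasome group it was -0.41 on the rescaled signals, -0.30 in replicates 1 and 2, -0.53 in replicates 3 and 4 and -0.24 with the beta-actin covariate.

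**Figure D5:**
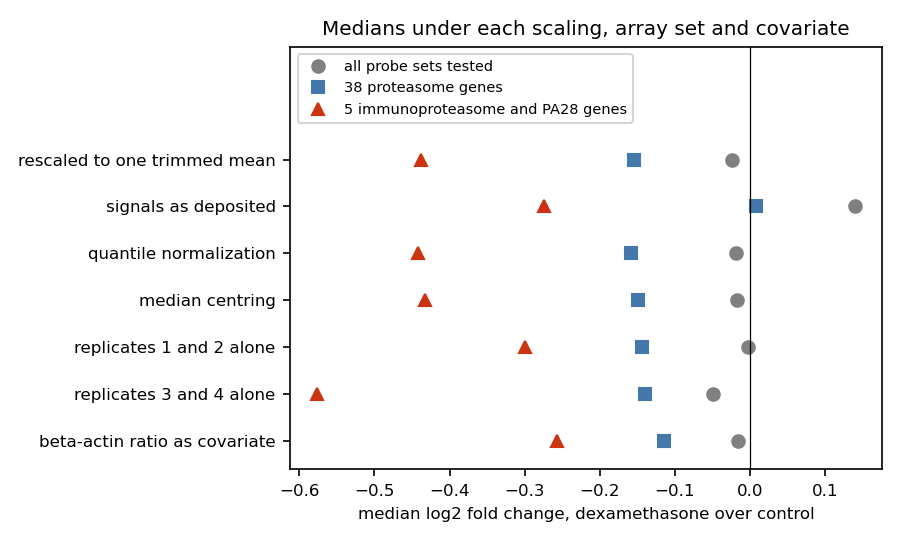
Median log2 fold change of dexamethasone over control (x axis) for all probe sets tested, the 38 proteasome genes and the 5 immunoproteasome and PA28 genes under each scaling, in each array set alone and under the beta-actin covariate (rows). In every row the proteasome genes lie to the left of all probe sets and the immunoproteasome genes farthest to the left, and on deposited signals the median of the 38 genes is at 0.0085.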

How the data were processed

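Total RNA from 4 control and 4 dexamethasone-treated primary cultures was amplified in 2 rounds and put on Affymetrix rat arrays, 1 per sample. The paper lists an A array and a B array of the rat set, and the titles of all samples used here end in A. The deposited values are signal intensities on a linear scale, which the authors made with the Affymetrix statistical algorithms and, per the labels, scaled to a target of 500. The deposited table of 15923 probe sets (57 controls) holds no detection calls. Each array was multiplied by 1 factor to a trimmed mean of 500 (2% left out at each end), since replicates 3 and 4 were below it. Signals under 16 were set to 16 and log2 was taken, and 10368 probe sets, whose mean over the arrays reached 100, were tested. Genes were named from the platform annotation deposited in GEO.

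The test was limma 3.58.1 (R 4.3.3), using lmFit and then eBayes with trend (two-sided, Benjamini-Hochberg at 0.05 over all 10368). For single genes an exact permutation test of the 4 and 4 arrays was added, whose smallest two-sided p is 0.0286. The number of arrays limits the precision, and p-values speak only of the spread among the samples, which may be technical. The members and the gene lists were chosen with earlier results of these data known. Values on every array were given by rule for the cutting subunits, their counterparts, PA28 and PA200, and briefer values for the 2 highest and 2 lowest log2 fold changes of each ring and cap group. Psmd1, Psmd9, Psmd10 and Pomp were given in full after their values were seen, as were other genes without overlap. Lists covered assembly, cap-bound, ubiquitin, delivery, transcription and interferon genes, and markers of epithelium, macrophages, fibroblasts and endothelium. In the fibroblast list 0 of 5 tested markers were called. In the endothelium list 1 was called higher (Kdr) and 1 lower (Flt1), and in the epithelium list 1 lower (Krt18, a keratin). With the array set as a block, Col1a2 of the fibroblast list was also called lower (log2 fold change -0.58, adjusted p 0.0139 from limma). So was Krt8 of the epithelium list (-0.33, adjusted p 0.0393 from limma). The limma script was checked on simulated data.

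Alternatives were the signals as deposited, quantile normalization, median centring, other filters and floors, robust and trend-free fits, blocks (replicate number, array set), each array set alone, a beta-actin covariate, a limit of 1.3-fold in place of the test, the subunits alone, averaged probe sets, and leaving out each array. Choices made once the data had been seen were the macrophage sum without Cd14, the ratios of cutting subunits, the array-set block without each array or with median centring, and 1 of the 13 motifs. RefSeq promoters (GRCr8) were searched in Python 3.11.15.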

Additional observations from a re-analysis of the deposited data

Results flagged for a closer look

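In 76 groups of 4 arrays, 1 for each gene and condition, 3 held an array far from the other 3 by Dixon's criterion, which chance alone meets in about 1 group in 20. Psmb4 read 9942 on control replicate 3 and between 6091 and 6503 on the other control arrays. Psmd10 read 979 on control replicate 3 and between 812 and 828 on the others. Psme1 read 1704 on control replicate 1 and between 2163 and 2206 on the others. Control replicate 3, with 2 of the 3, was also the array with the lowest deposited trimmed mean, 202, and the highest beta-actin ratio, 13.7, and the part of either in these values was not tested.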

How the results depend on the processing

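The count of proteasome genes past the threshold stayed at 0 in both directions under each scaling, filter, floor, trend, robust fit, probe set mean, array set alone and the beta-actin covariate. The array set as a block gave 3 lower (Psmb9, Psmd1 and Psme2) and 0 higher, beside 234 and 344 of all 10368 probe sets. The same block with median centring gave 2 lower (Psmb9 and Psmd1), beside 187. Leaving out single arrays without a block gave 0 to 1 lower (Psme2 without control replicate 1, beside 68). With the array-set block, leaving out control replicate 1 gave 1 lower (Psme2), control replicate 3 gave 3 lower and 1 higher (Psmd10), control replicate 4 gave 2 lower (Psmb5 and Psmb9), and each of the other 5 arrays gave 0. A 1.3-fold limit in place of the test was reached by 5 genes lower (Psmb9, Psmd1, Psmb10, Psmd9 and Psme2) and 0 higher, beside 7.06% and 7.35% of all probe sets. Of the other pathway genes, 1 was lower after quantile normalization, beside 101 of all probe sets, and 1 (Pomp) with the array-set block, beside 234. The cause of these differences was not tested.

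Same-numbered arrays deviated together with correlations of 0.35, 0.25, 0.035 and 0.41, and 1 of the 4 was under the 0.1 asked of every pair. Since the labels name no shared culture or day either, the numbers were not taken to pair the samples. With the replicate block, 2 genes passed the test lower (Psmb9 and Psmd1) and 0 higher.

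The median of the 38 genes was 0.0085 on deposited signals, that of the core 0.031 and that of the cap 0.020, where 18 genes changed sign because every log2 fold change moves up by the same amount. Their values were 0.12 for Psma1, 0.062 for Psma4, 0.031 for Psma5, 0.026 for Psma6, 0.0034 for Psma7, 0.084 for Psmb1, 0.16 for Psmb2, 0.065 for Psmb7, 0.062 for Psmc1, 0.028 for Psmc2, 0.070 for Psmc3, 0.012 for Psmd2, 0.044 for Psmd3, 0.0033 for Psmd4, 0.0020 for Psmd5, 0.098 for Psmd7, 0.0051 for Psme1 and 0.065 for Psme3ip1. With the beta-actin covariate Psma2 was at -0.18, Psmb2 at 0.064, Psmb4 at 0.14, Psmc1 at 0.017, Psmd11 at 0.010 and Psme3ip1 at 0.0086. With median centring Psmb2 was at 0.0043. In replicates 1 and 2 alone Psma2 was at -0.10, Psmb2 at 0.0069, Psmc1 at 0.030, Psmd8 at -0.044 and Psme1 at 0.040, and in replicates 3 and 4 alone Psma1 was at 0.21, Psmd7 at 0.10 and the core median at -0.069. With each array left out, the core median was between -0.19 and -0.089, Psma1 between -0.22 and 0.062, Psmb2 between -0.044 and 0.046, Psmd8 between -0.048 and 0.084 and Psme4 between -0.0019 and 0.070. No other gene among the 38 changed sign under these alternatives.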
